A study of Mus musculus with 6 samples.

Results

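Versican (Vcan), the other lecticans aggrecan (Acan), brevican (Bcan) and neurocan (Ncan), the hyaluronan and proteoglycan link proteins (Hapln1 to Hapln4) and the tenascins Tnc and Tnr are described here in the vestibular epithelium of mice. These 10 genes, of 52636 in the table, were chosen by the result for Vcan in the same comparison that is reported below, together with the genes of its family and its matrix partners. The values for Vcan are therefore given as a description with no test. The adjusted p-values of the other 9 genes come from a fit over all genes and are not independent evidence, because the group was assembled with these results known. All animals were male 129S1/SvImJ mice of 2 to 4 months of age at the start, and each library was made from the 2 utricles and 6 cristae of 1 animal. Control mice (n = 3) drank plain water, and IDPN mice (n = 3) drank water with 30 mM of 3,3'-iminodipropionitrile, a nitrile that is toxic to vestibular hair cells (HCs), for 8 weeks. The animal codes of the 3 Control mice share a stem that no IDPN mouse has, so treatment and this grouping of animals cannot be told apart. IDPN 2 and IDPN 3 share another stem, and IDPN 1 has a stem of its own. A difference between IDPN 1 and the other IDPN mice therefore cannot be told apart from this grouping.

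Lecticans are proteoglycans that carry chondroitin sulfate chains, bind hyaluronan through their N-terminal end and bind tenascins and other matrix ligands through their C-terminal lectin-like domain. Link proteins hold the lectican to the hyaluronan strand, and tenascins crosslink several lecticans. Together these molecules build loose pericellular matrices in many tissues, the perineuronal nets around neurons of the brain, and matrices around the calyx endings that wrap type I vestibular HCs.

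The libraries held between 40474847 and 43566332 estimated counts, and the values below are estimated counts divided by a DESeq2 size factor (normalised counts) unless stated. A gene was called when the DESeq2 adjusted p (Padj, Benjamini-Hochberg) was below 0.05 and the fold change exceeded 1.5. Of 17650 genes tested, 604 (3.42%) were called lower and 410 (2.32%) higher in IDPN. The quasi-likelihood test of edgeR called 357 of 16310 genes lower (2.19%) and 166 higher (1.02%). In 2007 genes (11.4%) every IDPN library was below every Control library, and in 1962 genes (11.1%) every IDPN library was above. The median log2 fold change of all tested genes was 0.02. Scaling to total counts in place of size factors shifted the log2 fold changes of single genes upwards by a median of 0.25. With that scaling 214 genes were called lower and 609 higher, so the balance of the calls turned.

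Among the 10 genes, 8 had enough counts to be given an adjusted p and are called tested here. Besides Vcan, whose own result chose the group and is not counted as a test, Hapln1 was the 1 gene called, in the higher direction. The groups did not overlap for 3 genes, with IDPN below Control for Vcan and above Control for Hapln1 and Hapln3. The other 7 genes had overlapping groups. Over all genes tested, 11.4% had every IDPN library below every Control library and 11.1% above. The difference in share was not tested, and Vcan is the gene that chose the group. The median log2 fold change of the 8 tested genes was −0.71, which includes the gene that chose the group.

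Vcan (ENSMUSG00000021614.16) lies on the minus strand at chr13:89655312-89742509 of GRCm38 and has 14462 exonic bases. The 250 bases before its RefSeq start site (GRCm38.p6, chr13:89742513-89742762, written along the minus strand of the gene) are shown because Vcan had the largest change of the group. The capitals mark the only match to the 5 motifs searched.
Vcan promoter: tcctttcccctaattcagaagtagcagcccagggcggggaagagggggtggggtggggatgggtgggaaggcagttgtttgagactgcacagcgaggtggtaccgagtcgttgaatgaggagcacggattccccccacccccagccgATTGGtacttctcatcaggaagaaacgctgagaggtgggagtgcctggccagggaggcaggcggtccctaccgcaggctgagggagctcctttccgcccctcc
The window was 62.4% G and C. The match is CCAAT, the letters bound by the factor NF-Y, read on the opposite strand 103 bases before the start, and 33.8% of 32851 mouse promoters of the same length hold these letters on either strand. No match was found to TATAAA (12.4% of promoters), to the AP-1 letters TGANTCA (6.75%), to the TCF/LEF letters CTTTGA (13.8%) or to the interferon-stimulated response element core, GAAA repeated after 2 bases (2.98%). These matches are a description of the letters in this window only.

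Vcan, the large lectican of loose connective and pericellular matrix, had 600, 533 and 614 normalised counts in the Control libraries and 29.8, 6.02 and 24.3 in the IDPN libraries. The lowest Control library was 17.9 times the highest IDPN library. The means were 582 ± 43.2 and 20.0 ± 12.4 (SD, n = 3), a 28.6-fold lower level in IDPN, with a log2 fold change of −4.84 (SE 0.33). The estimated counts behind these values were 495, 462 and 690 in Control and 36, 6 and 26 in IDPN. Ranked from the lowest log2 fold change, Vcan was number 1 of the 11770 genes with a mean of at least 100 normalised counts. This rank is drawn from the value that chose the group and is not a separate result. In pooled tissue, fewer cells of a type and less RNA per cell cannot be told apart.

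The marker lists of the cells in the sample give the setting of this value. Over all genes tested, 3.42% were called lower and 2.32% higher. Of 13 HC markers, 7 were called lower and none higher, with a median log2 fold change of −0.70 and a range of −1.98 to 0.01. Their summed level was 31323 to 35503 in Control and 22327 to 22740 in IDPN. Of 8 supporting cell markers, 1 was called lower, with a median of −0.41 and a range of −0.94 to 0.66. Their sums, in which Gjb6 and Gjb2 were the most abundant, were 310706 to 441929 in Control and 219857 to 262513 in IDPN. Of 7 markers of neurons and nerve fibres, 6 were tested and 3 were called lower, with a median of −0.45 and a range of −0.96 to 1.51. The highest was Prph, which was not called. Their sums, in which Nefl and Nefm were the most abundant, were 4925 to 5138 in Control and 3119 to 3407 in IDPN. Of 8 stroma markers, 1 was called lower, and the median was 0.04. Scaled to total counts, 4 of the 80 markers of all lists were called lower, against 13 with size factors. The part of these cell types in the Vcan value was not tested.

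**Figure D1:**
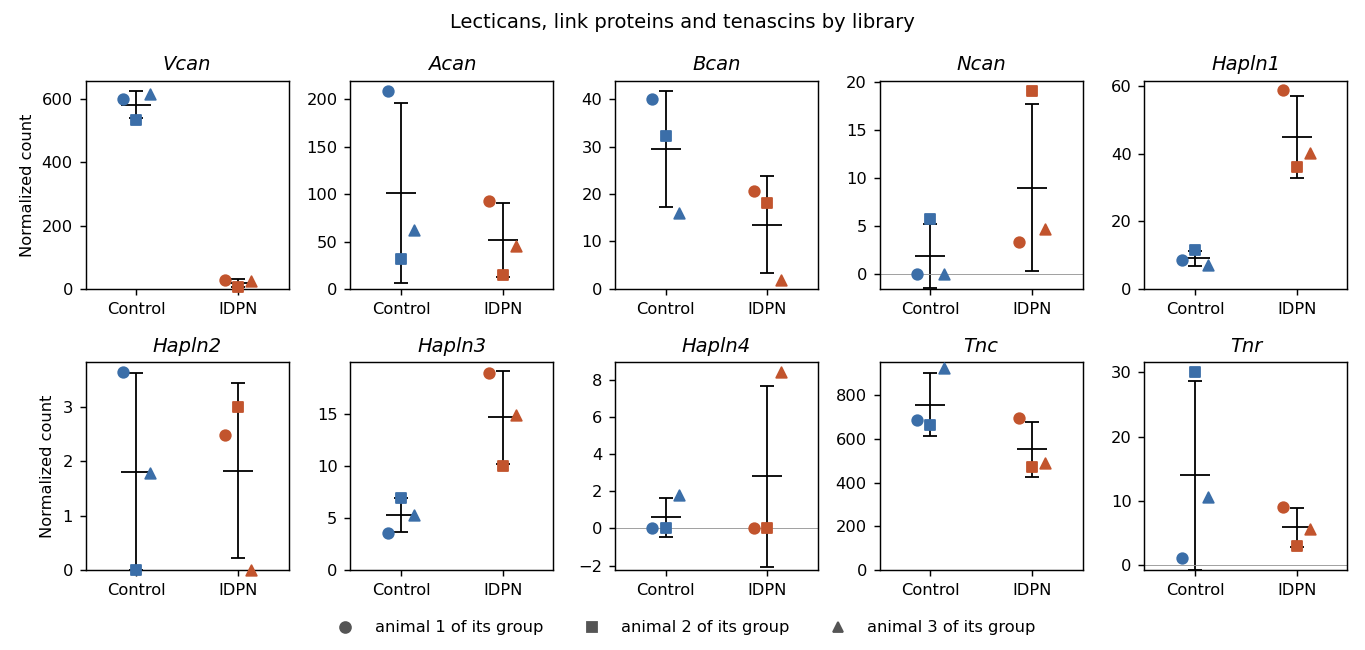
Normalised counts of each of the 10 genes in the 3 Control and the 3 IDPN libraries, 1 panel a gene, with a linear axis of its own; points are libraries, and the line and bar give the mean and SD. Vcan lies at 533 to 614 in Control and at 6.02 to 29.8 in IDPN, while Acan has 1 high Control library at 209.

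The other lecticans were not called in either direction. Acan, the lectican of cartilage and of perineuronal nets, had 209, 31.2 and 62.3 normalised counts in Control and 92.7, 15.1 and 45.7 in IDPN. The groups overlapped, and the log2 fold change was −0.97 (SE 1.00, 95% interval −2.93 to 0.98, DESeq2 Padj = 0.711). Control 1 had the highest Acan level, and it also had the highest sums among the Control libraries of the cartilage markers (21260, lowest Control 14695) and the Schwann cell markers (246652, lowest Control 112942). The same held for the supporting cell, stroma, bone, neuron and endothelium markers, but not for the HC, central glia, macrophage or erythroid markers. In IDPN the cartilage sums ran the other way. IDPN 2 had the highest sum (19506) and the lowest Acan level, and IDPN 1 had the lowest sum (16417) and the highest Acan level of the IDPN libraries. Without Control 1, the log2 fold change of Acan was 0.13 (DESeq2 Padj = 0.978). No cartilage marker was called among the 6 tested of 8, and Matn3, a cartilage matrix protein, was at 0 in all libraries. The part of these cells in the Acan values was not tested.

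Bcan, a lectican made mainly by glia and neurons of the brain, had 40, 32.3 and 16.0 normalised counts in Control and 20.7, 18.1 and 1.87 in IDPN, with overlapping groups. Its log2 fold change was −1.11 (SE 0.76, 95% interval −2.59 to 0.37, DESeq2 Padj = 0.495). Ncan, a secreted lectican of developing brain, had 0, 5 and 0 estimated counts in the Control libraries and 4, 19 and 5 in the IDPN libraries, so most libraries were near the 3 counts that a count of 0 allows. The log2 fold change of Ncan was 2.25 (SE 1.5, 95% interval −0.68 to 5.19, DESeq2 Padj = 0.483), and it ranged from 1.07 without IDPN 2 to 5.55 without Control 2. Of 6 central glia markers, Olig2 and Mog were at 0 in all libraries, and 2 were tested, with neither called. These were Aqp4, with means of 643 normalised counts in Control and 554 in IDPN, and Gfap, with 25.2 and 35.3. The intervals of Acan and Bcan include a decrease of over 1.5-fold, no change and some increase, and that of Ncan runs from −0.68 to 5.19. The depth and the spread between animals therefore did not settle the direction or size of change in these genes.

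Hapln1, the link protein of cartilage and of perineuronal nets, was the member that rose. Hapln1 (ENSMUSG00000021613.9, plus strand, chr13:89539796-89611652) had 8.49, 11.5 and 7.12 normalised counts in Control and 58.8, 36.1 and 40.1 in IDPN. Every IDPN library was above every Control library, and the lowest IDPN library was 3.13 times the highest Control library. The means were 9.05 ± 2.26 and 45.0 ± 12.1 (SD, n = 3), a 5.02-fold increase with a log2 fold change of 2.33 (SE 0.58, DESeq2 Padj = 0.0025, edgeR Padj = 0.0292). The estimated counts were 7, 10 and 8 in Control and 71, 36 and 43 in IDPN. The call was lost without IDPN 1 (log2 fold change 2.09, DESeq2 Padj = 0.0799).

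Hapln3, a widely expressed link protein, had 3.64, 6.93 and 5.34 normalised counts in Control and 19.0, 10.0 and 14.9 in IDPN. The groups did not overlap, but the log2 fold change of 1.47 (SE 0.87, 95% interval −0.23 to 3.17) did not pass the test (DESeq2 Padj = 0.402). Hapln2, the link protein of nodes of Ranvier, had 3, 0 and 2 estimated counts in the Control libraries and 3, 3 and 0 in the IDPN libraries. Hapln4, a link protein of perisynaptic matrix in the brain, had 0, 0 and 2 estimated counts in the Control libraries and 0, 0 and 9 in the IDPN libraries. Neither Hapln2 nor Hapln4 was given an adjusted p, because the independent filtering of DESeq2 set aside genes of low mean count. With that filter off neither was called (DESeq2 Padj = 0.997 for Hapln2 and 0.959 for Hapln4).

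Tnc, a matrix glycoprotein and tenascin of tissue remodelling, was the member with the highest level and had 683, 660 and 922 normalised counts in Control and 695, 470 and 488 in IDPN. The groups overlapped through IDPN 1, and the log2 fold change of −0.45 (SE 0.22, 95% interval −0.89 to −0.02) did not pass the test over all genes (DESeq2 Padj = 0.265). Scaled to total counts, the log2 fold change of Tnc was −0.21. Tnr, the tenascin of perineuronal nets, had 1.21, 30.0 and 10.7 normalised counts in Control and 9.10, 3.01 and 5.60 in IDPN, with a log2 fold change of −1.23 (SE 1.05, 95% interval −3.29 to 0.83, DESeq2 Padj = 0.626). Its highest value was that of Control 2, without which the log2 fold change was −0.03, and the groups overlapped. Tnc shares 176 exonic bases with 8030451A03Rik and Tnr shares 443 with Gm38039, each on the opposite strand, and the libraries do not mark the strand, so these reads cannot be assigned between the genes.

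**Figure D2:**
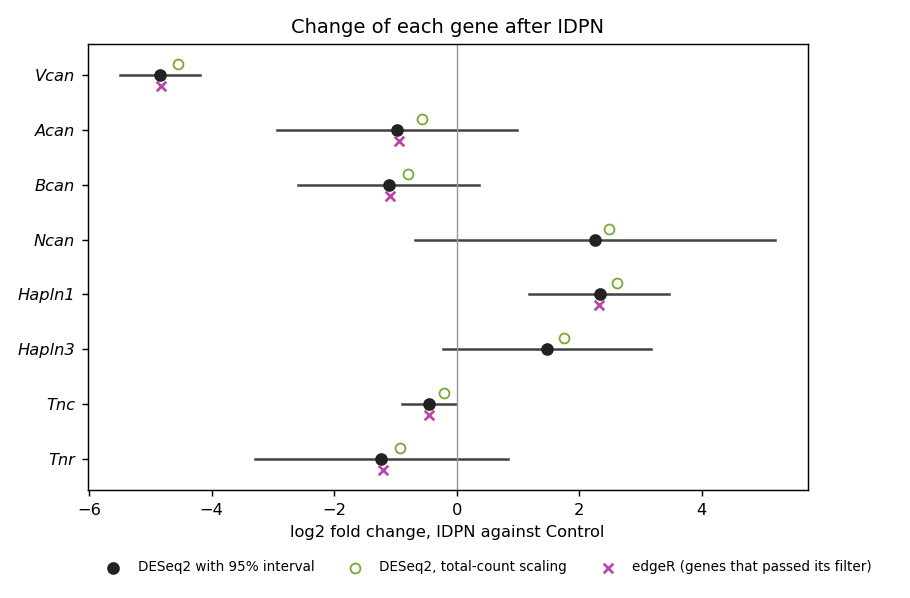
Log2 fold change of the 8 tested genes, IDPN against Control, on the horizontal axis; filled points are DESeq2 estimates with 95% intervals as bars, open circles are DESeq2 estimates scaled to total counts and crosses are edgeR estimates. Vcan lies at −4.84, and its bar is not a test because its change chose the group. Hapln1 lies at 2.33, while the intervals of Acan, Bcan, Ncan, Hapln3 and Tnr include 0 and that of Tnc runs from −0.89 to −0.02.

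Levels were compared between genes as normalised counts per kb of exon. In Control the order of the mean levels was Tnc at 97.1, Vcan at 40.3, Acan at 13.5, Bcan at 7.25, Hapln1 at 1.53, Hapln3 at 1.51 and Tnr at 1.09, with Hapln2 (0.762), Ncan (0.267) and Hapln4 (0.151) at the bottom. Across the Control libraries Tnc did not overlap with Vcan, Vcan with Acan or Bcan with Hapln1, and the other neighbours in the order overlapped. In IDPN the order was Tnc at 70.9, Hapln1 at 7.63, Acan at 6.85, Hapln3 at 4.18, Bcan at 3.33 and Vcan at 1.38, followed by Ncan (1.25), Hapln2 (0.773), Hapln4 (0.713) and Tnr (0.459). Vcan thus moved from the second place in Control to the sixth in IDPN, and Hapln1 from the fifth to the second. In IDPN Tnc did not overlap with Hapln1, and from Hapln1 downwards each neighbour overlapped with the next.

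The make-up of the lectican level followed from these values. Vcan made up 52.4%, 74.0% and 77.6% of the summed lectican level per kb in Control and 10.3%, 4.37% and 18.8% in IDPN, with means of 68.0% ± 13.7 and 11.2% ± 7.27 (SD, n = 3). The share of Acan was 35.2%, 8.38% and 15.2% in Control and 62.0%, 21.2% and 68.7% in IDPN, and the groups overlapped. A lower Vcan raises the share of Acan by arithmetic alone, and the mean level of Acan per kb was 13.5 in Control and 6.85 in IDPN. These shares and the sum that includes Vcan rest on the value that chose the group and are given with no test. The summed lectican level per kb was 79.3, 49.8 and 54.7 in Control and 20.0, 9.53 and 8.91 in IDPN. With Vcan left out, the sum was 37.8, 12.9 and 12.3 in Control and 18.0, 9.11 and 7.23 in IDPN, and the groups overlapped. The summed link protein level per kb was 4.01, 3.93 and 3.93 in Control and 16.4, 10.3 and 13.2 in IDPN, with every IDPN library above Control.

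The ratio of Vcan to Hapln1 per kb was 28.9, 18.9 and 35.2 in Control. In IDPN the order was the other way round, and Hapln1 exceeded Vcan by 4.83, 14.7 and 4.05 times. The ratio of Tnc to Vcan per kb was 2.12, 2.3 and 2.79 in Control and 43.4, 145 and 37.4 in IDPN. These ratios rest on the Vcan values and are given with no test.

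**Figure D3:**
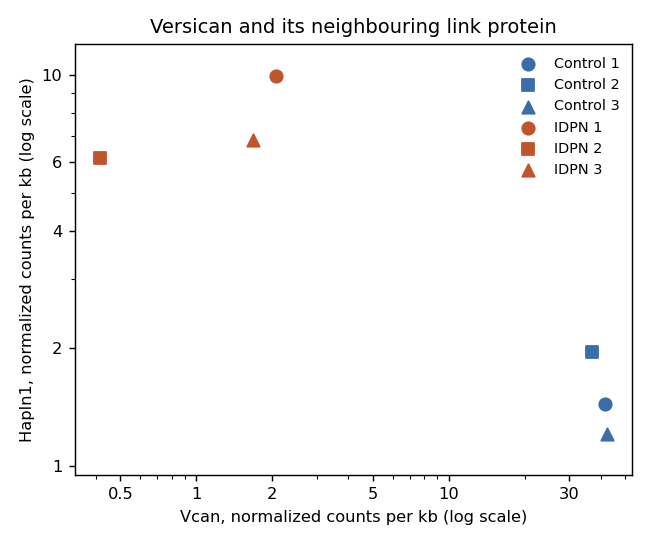
Hapln1 against Vcan in each library, both as normalised counts per kb of exon on log axes. The 3 Control libraries lie at high Vcan (36.9 to 42.4) and low Hapln1, and the 3 IDPN libraries at low Vcan (0.417 to 2.06) and high Hapln1.

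Each lectican gene lies next to a link protein gene in the genome, with 0 protein-coding genes between them. Hapln1 and Vcan point towards each other on chromosome 13 with a gap of 43.7 kb, and in IDPN Vcan was lower and Hapln1 higher. Bcan and Hapln2 are 21.5 kb apart on chromosome 3, and Ncan and Hapln4 are 2.2 kb apart on chromosome 8. Acan and Hapln3 point towards each other on chromosome 7 with 2 bases between them, so that reads that run past one gene end in the other and unstranded reads cannot be assigned there. In none of the latter pairs was either gene called.

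On the other side of Vcan, Xrcc4, a partner of the ligase that joins broken DNA ends, lies 31.5 kb away and fell. It had 591, 718 and 515 normalised counts in Control and 380, 320 and 329 in IDPN, with a log2 fold change of −0.82 (SE 0.20, DESeq2 Padj = 0.00222, edgeR Padj = 0.0289). Every IDPN library was below every Control library, but scaled to total counts the log2 fold change was −0.55 and was not called (DESeq2 Padj = 0.205). Edil3, an integrin-binding matrix protein beyond Hapln1, had 212, 121 and 133 normalised counts in Control and 103, 62.2 and 73.7 in IDPN, with a log2 fold change of −0.96 (SE 0.34, DESeq2 Padj = 0.0633), and it was called lower without IDPN 1 (−1.19, DESeq2 Padj = 0.0454). Tmem167, a small protein of the secretory pathway, had a log2 fold change of −0.28 (DESeq2 Padj = 0.299). Farther away, Cox7c, a subunit of cytochrome c oxidase, had −0.55 (DESeq2 Padj = 0.0856), and Atp6ap1l had at most 1 count in any library. Beside the other lecticans, the log2 fold changes were 1.65 for Isg20 next to Acan (DESeq2 Padj = 0.376), 0.15 for Nes next to Bcan (Padj = 0.815) and −0.06 for Rfxank next to Ncan (Padj = 0.924).

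**Figure D4:**
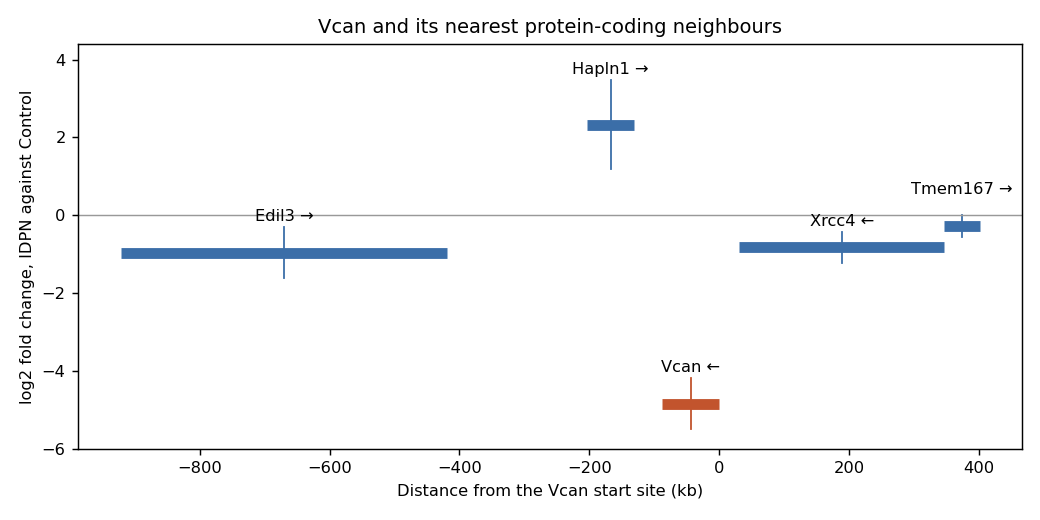
Log2 fold change, IDPN against Control, of Vcan and its nearest protein-coding genes against the distance from the Vcan start site in kb; each bar spans a gene, the vertical line is the 95% interval and the arrow gives the direction of transcription. Vcan (−4.84) and Hapln1 (2.33) stand on either side of 0, and Edil3, Xrcc4 and Tmem167 lie between −0.96 and −0.28. The vertical line of Vcan, whose change chose the group, is not a test.

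The genes whose levels across the 6 libraries were most like that of Vcan were Cbln4, Pcdhb20, Sod3, Msln and Ntm. Likeness was the Euclidean distance between log2 levels, each centred on its own mean, among 11184 genes, and it uses the same contrast that chose Vcan. Cbln4, a secreted synaptic organiser of the cerebellin family, was the nearest at a distance of 0.86, with 774, 811 and 697 normalised counts in Control and 48.0, 16.1 and 31.7 in IDPN. Pcdhb20, a clustered protocadherin, followed at 1.34, with 167, 227 and 228 in Control and 15.7, 4.02 and 20.5 in IDPN. As in Vcan, IDPN 2 had the lowest level in all 5 of these genes, which were picked by likeness over the same 6 libraries. Sod3, the extracellular superoxide dismutase, stood at a distance of 2.17 and had far higher levels, with 54508, 64869 and 32433 in Control and 4646, 2828 and 3814 in IDPN. Msln, the cell surface protein mesothelin, stood at 2.54 and Ntm, an adhesion molecule of neurons, at 2.67, with log2 fold changes of −3.10 and −2.87.

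Of 95 genes of the wider matrix pathway in 10 lists, 83 were tested, 4 were called lower (4.82%, against 3.42% of all genes) and 5 higher (6.02%, against 2.32%), and these differences in share were not tested. Their median log2 fold change was 0.00, against 0.02 for all genes tested. Among the enzymes that make hyaluronan, the strand that lecticans bind, 1 of 3 was tested. This was Has1, with 1.21, 3.46 and 0 normalised counts in Control and 3.31, 36.1 and 19.6 in IDPN (log2 fold change 3.72, SE 1.22, DESeq2 Padj = 0.0396). The groups overlapped through IDPN 1, the IDPN mouse with a code stem of its own, and the counts were too low for the edgeR fit. Of the 6 fits with 1 library left out, Has1 was called in 1, the fit without IDPN 1 (4.23, DESeq2 Padj = 0.0172).

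Of 5 genes of hyaluronan breakdown, Cemip, a hyaluronan-binding protein needed for its depolymerisation, was called lower, and the median of the list was −0.13. Cemip had 953, 743 and 804 normalised counts in Control and 610, 321 and 402 in IDPN (log2 fold change −0.91, SE 0.24, DESeq2 Padj = 0.00553). The groups did not overlap, but the call was not made by edgeR (Padj = 0.0673), after scaling to total counts (−0.61, DESeq2 Padj = 0.248), or without Control 1 (DESeq2 Padj = 0.0880), IDPN 2 (0.0524) or IDPN 3 (0.0784).

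Of 12 hyaluronan receptors and binding proteins, 9 were tested, 2 were called higher and none lower, with a median of 0.29, and Itih1 and Ambp were at 0 in all libraries. Itih4, a plasma protein of the inter-alpha-trypsin inhibitor family, had 31.5, 26.5 and 8.90 normalised counts in Control and 100, 248 and 202 in IDPN. The log2 fold change of 3.06 (SE 0.46, DESeq2 Padj = 3.66e-09, edgeR Padj = 0.00938) was called in each of the 6 fits that left out 1 library. Lyve1, the hyaluronan receptor of lymphatic endothelium and some macrophages, had 69.1, 117 and 147 in Control and 226, 379 and 217 in IDPN (log2 fold change 1.30, SE 0.33, DESeq2 Padj = 0.00251). The call of Lyve1 was not made by edgeR (Padj = 0.0636) or without IDPN 2 (0.99, DESeq2 Padj = 0.0847). The summed level of 7 macrophage markers was 2076 to 2931 in Control and 2488 to 3682 in IDPN, none was called, and their part in the Lyve1 value was not tested. The 5 erythroid markers, RNA of red blood cells, summed to 16166 to 36635 in Control and 34689 to 49091 in IDPN, and 4 of them (Hbb-bs, Hba-a1, Hba-a2 and Alas2) were called higher by DESeq2 and none by edgeR. The part of blood in the value of the plasma protein gene Itih4 was not tested.

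The enzymes that build and modify the chondroitin sulfate chains of lecticans had no called gene. Of 14 genes of the linker and the chain, 14 were tested, with a median log2 fold change of −0.02. Their most abundant genes were Ugdh, which makes UDP-glucuronate, at −0.11 (SE 0.21, DESeq2 Padj = 0.878) and Fam20b, the xylose kinase of the linker, at −0.13 (SE 0.16, DESeq2 Padj = 0.773). Of 11 modifying enzymes, 10 were tested, with a median of −0.03, and Chst13 was at 0. Dse, an epimerase that makes dermatan sulfate, was at 0.00 (SE 0.19, 95% interval −0.38 to 0.38) and Ust, a uronyl sulfotransferase, at −0.03 (SE 0.16, 95% interval −0.35 to 0.29). The 95% intervals of these 4 genes lay between −0.52 and 0.38 on the log2 scale.

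Of 17 proteases that cleave lecticans and their inhibitors, 14 were tested, 2 were called higher, and the median was 0.20, with Mmp3 at 0. Adamts1, a metalloprotease that cuts versican and aggrecan, had 212, 235 and 227 normalised counts in Control and 257, 1229 and 1302 in IDPN (log2 fold change 2.05, SE 0.66, DESeq2 Padj = 0.0354, edgeR Padj = 0.0481). The groups did not overlap, although IDPN 1, the IDPN mouse with a code stem of its own, stood close to Control. Of the 6 fits with 1 library left out, Adamts1 was called in 1, the fit without IDPN 1 (2.5, DESeq2 Padj = 5.43e-30). In the other fits the DESeq2 Padj was between 0.102 and 0.240. Mmp14, a membrane-bound metalloprotease, had 657, 616 and 1147 in Control and 1308, 1887 and 1310 in IDPN (log2 fold change 0.89, SE 0.25, DESeq2 Padj = 0.00951). The call of Mmp14 was not made by edgeR (Padj = 0.0905) or without Control 1 (DESeq2 Padj = 0.12), Control 2 (0.155) or IDPN 2 (0.122).

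Of 8 matrix ligands of lecticans and other tenascins, 6 were tested and none was called with all libraries, with a median of −0.47 and Tnn at 0. Thbs1, a matricellular glycoprotein, had 1721, 1706 and 1601 normalised counts in Control and 893, 21436 and 812 in IDPN. DESeq2 gave it no adjusted p because of the outlying value of IDPN 2, and its log2 fold change was 2.20 (SE 1.35) with that library. Without IDPN 2 the log2 fold change was −0.97, and Thbs1 was called lower (DESeq2 Padj = 2.16e-06), whereas edgeR with all libraries gave a Padj of 0.301. Fbln2, a ligand of the versican and aggrecan lectin domain, had 2155, 1652 and 1337 in Control and 1459, 1050 and 1109 in IDPN (log2 fold change −0.51, SE 0.21, DESeq2 Padj = 0.158), and it was called lower without Control 3 (−0.66, DESeq2 Padj = 0.0250).

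Of 9 other chondroitin sulfate proteoglycans, all were tested and 2, the testicans Spock3 and Spock1, were called lower, with a list median of −0.21. The remaining testican, Spock2, was not called and had a log2 fold change of 0.35 (SE 0.23, DESeq2 Padj = 0.478). Spock3 had 952, 808 and 763 normalised counts in Control and 343, 275 and 284 in IDPN (log2 fold change −1.48, SE 0.19, DESeq2 Padj = 6.05e-12, edgeR Padj = 0.00133). Spock1 had 2735, 2789 and 3181 in Control and 1968, 1460 and 1441 in IDPN (log2 fold change −0.84, SE 0.18, DESeq2 Padj = 0.000163, edgeR Padj = 0.0227). The groups did not overlap for either gene, and both were called in each of the 6 fits that left out 1 library. Scaled to total counts, Spock1 was not called (−0.58, DESeq2 Padj = 0.192).

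Of 4 cargo proteins of perineuronal nets, all were tested and 1 was called lower, with a median of −1.13. This was Sema3a, a secreted guidance protein that binds chondroitin sulfate, with 252, 260 and 348 normalised counts in Control and 82.8, 110 and 94.3 in IDPN. The log2 fold change of Sema3a was −1.59 (SE 0.26, DESeq2 Padj = 1.82e-07, edgeR Padj = 0.00620), the groups did not overlap, and it was called in each of the 6 fits that left out 1 library. Of 12 receptors of these proteoglycans and of tenascins, 11 were tested and none was called, with a median of 0.22. Cntn1, an adhesion molecule that binds tenascins, had a log2 fold change of −0.51 (SE 0.13, DESeq2 Padj = 0.00452), below the 1.5-fold threshold, and Itgb1, an integrin subunit, had 0.28 (SE 0.15, DESeq2 Padj = 0.316).

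**Figure D5:**
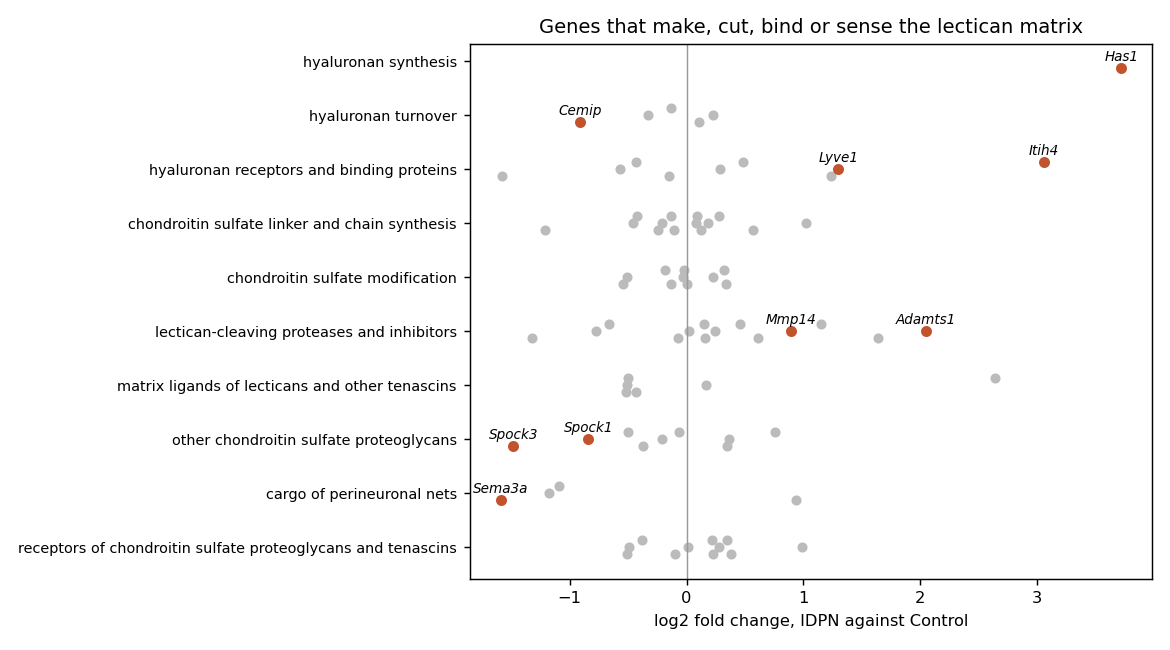
Log2 fold change, IDPN against Control, of the tested genes in each of the 10 matrix pathway lists; points are genes, named orange points are called genes, grey points are the others and the vertical line marks 0. The called genes run from −1.59 (Sema3a) to 3.72 (Has1).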

How the data were processed

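RNA was sequenced from 3 Control and 3 IDPN mice (6 to 11 ng of RNA a library, SMART-seq2, not stranded). The authors aligned reads with STAR 2.5.3a to GRCm38 and deposited RSEM 2.3.0 expected counts per gene (GENCODE release 15 for mouse), given as whole numbers. Multi-mapping reads are shared among genes by estimation, which adds uncertainty for near-identical genes. From these counts, DESeq2 1.42.0 (R 4.3.3) was run with treatment as the only term, with the study's thresholds for calls and with edgeR 4.0.16, other scaling, filters and left-out libraries as alternatives. Each library is 1 animal. Normalised counts per kb use exon unions of GENCODE release 21, which also gives coordinates on GRCm38. Promoter letters are from RefSeq (GRCm38.p6), with entries for 9 of 10 genes. Likeness used log2(normalised count + 1).

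The 10 genes, the pathway and marker lists and the tests were chosen with earlier results of these data known. Genes named were all 10, each pathway list's called genes or otherwise its 2 most abundant, the 3 nearest protein-coding genes on each side of Vcan and the nearest beside the other lecticans, the 5 genes most like Vcan with a mean of at least 100, markers called in the list with the largest median change, and genes at 0.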

Additional observations from a re-analysis of the deposited data

How the results depend on the processing

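No paired analysis was possible because the labels give no replicate numbers shared between groups. With edgeR, 357 genes were called lower and 166 higher, pathway genes called higher fell from 5 to 2, and markers called higher from 4 to 0. With size factors from total counts, 214 genes were called lower and 609 higher, and the calls were 2 lower pathway genes, 0 lower neighbours of the lecticans, and 4 lower and 8 higher markers. Tested against a fold change of 1.5, 111 genes were lower and 34 higher, 0 members were higher, 2 pathway genes were lower and 1 higher, 0 neighbours were lower and 0 higher, and 2 markers were lower and 0 higher. With independent filtering off, 3 pathway genes were called higher. Leaving out 1 library gave 436 to 720 genes lower and 234 to 611 higher (without Control 1 it was 243, without Control 2 it was 246, and without IDPN 2 or 3 it was 234 or 265), 0 to 1 members higher (0 without IDPN 1), 3 to 7 pathway genes lower (7 without Control 3) and 1 to 5 higher (2 without either Control 1 or Control 2, 1 without IDPN 2, and 3 when IDPN 3 was omitted), 1 to 2 neighbours lower (2 without Control 3, IDPN 1 or IDPN 2) and 0 to 1 higher (0 without IDPN 1), and 9 to 15 markers lower and 0 to 5 higher (0 without Control 1, IDPN 1 or IDPN 2, and 1 without IDPN 3). The cause of these shifts was not tested. Vcan, which chose the group, kept its direction with each alternative, with log2 fold changes of −5.24 to −4.42 when 1 library was left out. The sign turned in 14 of 351 values, from 8 of the 30 genes tried: Acan to 0.13 without Control 1 (its range was −1.72 to 0.13); with total counts Ugdh to 0.14, Fam20b to 0.12 and Ust to 0.20; Ugdh to 0.05 without IDPN 1 (range −0.33 to 0.05); Ust to 0.03 without Control 3; and Dse to −0.02, −0.11 and −0.12 without Control 1, Control 2 and IDPN 1; Thbs1 to −0.97 without IDPN 2; and the barely counted Hapln4 without IDPN 3 (−1.86) and Hapln2 without Control 2, IDPN 1 or IDPN 2. With a pseudocount of 10, 4 of the 5 genes most like Vcan were shared. The low counts of Ncan, Hapln2, Hapln4 and Tnr limit what could be detected in them.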
